A study of Mus musculus with 2 samples.

Results

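The 10 genes described here are the Runt-related transcription factor genes Runx1, Runx2 and Runx3, their partner subunit gene Cbfb, the osteoblast regulator gene Sp7, the signalling pair Pthlh and Pth1r, and 3 genes of mineralising tissue, Col10a1, Spp1 and Alpl. They were chosen by symbol, and all 10 were found among the 43346 Ensembl genes measured. Total RNA was sequenced from limb tissue of B6NCrl mouse embryos of mixed sex at 12.5 days of development. There was 1 group of 2 biological replicates, with no other condition. The limbs of 88 embryos were pooled for replicate 1 and those of 68 for replicate 2, and each library was made from 10 ng of RNA longer than 200 nt. Forelimb and hindlimb are not distinguished in the labels, and each pool mixes the tissues of the whole limb. In such bulk tissue, fewer cells of a type and less RNA per cell cannot be told apart. The questions that can be asked are therefore how high these genes stood in the limb, in what order, from which annotated starts, and how far the 2 pools differed.

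Runx proteins bind DNA through their Runt domain, and CBFβ, the product of Cbfb, strengthens that binding without touching DNA itself. Runx2 is required for osteoblast formation and promotes chondrocyte hypertrophy, Runx1 is required for definitive blood formation, and Runx3 is required for a class of sensory neurons and acts with Runx2 in maturing cartilage. Sp7 (osterix) acts downstream of Runx2 in osteoblast formation. In growing cartilage, parathyroid hormone-related protein, encoded by Pthlh, signals through the receptor encoded by Pth1r and delays hypertrophy, while Indian hedgehog from maturing chondrocytes maintains Pthlh expression. Col10a1 encodes the collagen of hypertrophic cartilage, Spp1 the secreted phosphoprotein osteopontin, and Alpl the tissue-nonspecific alkaline phosphatase that removes pyrophosphate, an inhibitor of mineralisation.

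Each Runx gene is transcribed from a distal and a proximal promoter. The available sequence before RefSeq starts near these promoters is shown first, because the transcript shares given below divide between distal and proximal starts. Some of the transcript starts behind those shares lie inside the windows. Transcript Runx1-201 starts at 92826149, Runx2-201 and Runx2-202 at 44814797 and Runx3-202 at 135152496. The strings are the 250 bases before starts annotated in RefSeq (GRCm38.p6), written 5′ to 3′ on the strand of the gene. Capitals mark a Runx motif, TGTGGT or its reverse complement ACCACA. The Runx1 windows lie at chr16:92826075-92826324 (distal) and chr16:92697330-92697579 (proximal), both on the minus strand. The Runx2 distal window lies at chr17:44814628-44814877 on the minus strand. No window before the proximal Runx2 start or before Sp7 was available, so these were neither shown nor searched. The Runx3 windows lie at chr4:135120395-135120644 (distal) and chr4:135152295-135152544 (proximal), both on the plus strand. The Spp1 window, shown as the other member with a Runx motif, lies at chr5:104434861-104435110 on the plus strand.
Runx1 distal: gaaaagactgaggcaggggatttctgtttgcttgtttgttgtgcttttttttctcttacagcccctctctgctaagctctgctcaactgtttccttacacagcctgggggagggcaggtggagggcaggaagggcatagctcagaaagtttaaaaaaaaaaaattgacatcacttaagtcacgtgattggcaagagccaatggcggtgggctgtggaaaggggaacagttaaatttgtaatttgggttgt
Runx1 proximal: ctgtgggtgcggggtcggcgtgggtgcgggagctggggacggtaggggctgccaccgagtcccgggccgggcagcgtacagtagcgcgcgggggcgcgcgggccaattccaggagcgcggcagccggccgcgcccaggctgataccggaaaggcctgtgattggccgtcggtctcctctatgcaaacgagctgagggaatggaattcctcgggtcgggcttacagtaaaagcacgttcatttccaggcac
Runx2 distal: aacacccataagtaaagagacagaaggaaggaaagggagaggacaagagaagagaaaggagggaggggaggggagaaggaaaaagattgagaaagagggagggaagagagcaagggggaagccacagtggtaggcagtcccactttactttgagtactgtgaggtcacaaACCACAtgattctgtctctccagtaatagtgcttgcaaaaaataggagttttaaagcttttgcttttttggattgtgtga
Runx3 distal: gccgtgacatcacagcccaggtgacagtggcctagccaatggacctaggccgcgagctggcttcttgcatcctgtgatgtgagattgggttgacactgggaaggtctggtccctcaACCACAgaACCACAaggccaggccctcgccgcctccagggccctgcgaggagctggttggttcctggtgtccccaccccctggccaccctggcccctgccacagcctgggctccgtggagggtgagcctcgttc
Runx3 proximal: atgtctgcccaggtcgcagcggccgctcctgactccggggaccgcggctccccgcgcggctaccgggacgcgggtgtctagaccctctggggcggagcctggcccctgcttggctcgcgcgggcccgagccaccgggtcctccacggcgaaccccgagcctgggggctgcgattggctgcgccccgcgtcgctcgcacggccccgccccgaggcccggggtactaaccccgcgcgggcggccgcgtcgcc
Spp1: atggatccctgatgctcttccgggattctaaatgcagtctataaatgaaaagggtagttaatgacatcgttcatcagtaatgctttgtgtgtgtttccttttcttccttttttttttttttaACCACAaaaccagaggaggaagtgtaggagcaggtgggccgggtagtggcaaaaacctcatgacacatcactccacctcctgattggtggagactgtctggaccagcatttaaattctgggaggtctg

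In Runx1 and Runx3 the distal window held fewer CpG dinucleotides than the proximal window. The Runx1 distal window held 2 CpG and was 45.6% G or C, while its proximal window held 27 and was 67.6% G or C. The Runx3 distal window held 8 CpG and its proximal window 38, with 65.2% and 78.8% G or C. The Runx2 distal window held 0 CpG at 44.8% G or C. Over all 32851 RefSeq promoter windows of this length the medians were 6 CpG and 52.4% G or C. Both strands were searched for the Runx motifs TGTGGT and TGCGGT and for the Sp factor motif GGGCGG. A Runx match stood at position -80 from the start in the distal Runx2 window, at -134 and -126 in the distal Runx3 window and at -128 in the Spp1 window, counted at the upstream end of the match. These were the only Runx matches in the 15 windows that matched 9 members (Alpl, Cbfb, Col10a1, Pth1r, Pthlh, Runx1, Runx2, Runx3 and Spp1), all with TGTGGT, and TGCGGT was in 0 of them. Of all windows, 14.0% held TGTGGT, 5.10% held TGCGGT and 18.6% held either. GGGCGG was in 6 of the 15 member windows, 3 of its matches being in the proximal Runx3 window, against 32.7% of all windows. The Runx2 match at -80 is counted from the RefSeq start. It lies downstream of the start of transcripts Runx2-201 and Runx2-202, at 44814797. A match describes the letters of the window and was not tested as a binding site.

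Facts of the whole series that touch these genes are few. The deposited expected counts, which are estimated counts with shared reads split between features, summed to 29810026 in replicate 1 and 29938721 in replicate 2. All 10 limb identity genes (such as Msx1, Prrx1 and Pitx1) and all 13 cartilage markers reached 1 TPM in both libraries, TPM being a level per transcript length that is scaled to a fixed library sum. The cartilage markers summed to 1288 TPM in replicate 1 and 1135 TPM in replicate 2, and the sensory neuron markers to 32.8 and 60.3 TPM. Macrophage markers summed to 103 and 89.4 TPM (11 of 11 at 1 TPM in both libraries), blood progenitor and megakaryocyte markers to 120 and 113 (11 of 12), and surface ectoderm markers to 429 and 388 (9 of 9). Muscle markers summed to 849 and 825 TPM (8 of 9 at 1 TPM) and endothelial markers to 212 and 206 (8 of 8). The 10 osteoclast markers summed to 45.7 and 41.8 TPM. The 4 that reached 1 TPM in both libraries were Nfatc1 (28.57 and 26.4), Ctsk (8.49 and 6.75), Acp5 (5.39 and 6.45) and Mmp9 (2.37 and 1.59). Dcstamp and Atp6v0d2, which serve osteoclast fusion and acid secretion, were listed at 0 in both.

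Of the 10 genes 9, all but Col10a1, reached 1 TPM in both libraries, against 33.5% of all Ensembl genes and 59.2% of protein-coding genes. The median level of the 10 was 4.33 TPM, beside 4.32 TPM over all protein-coding genes. Their levels spanned a wide range, with Cbfb and Pth1r far above the other 8.

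**Figure D1:**
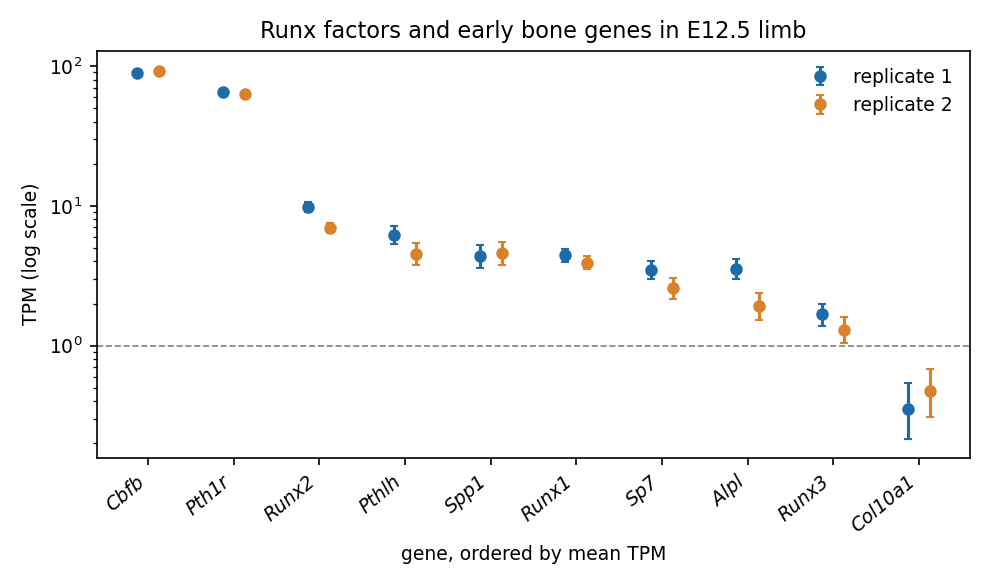
Level of each gene in TPM (log axis) in replicate 1 (blue) and replicate 2 (orange), ordered by mean TPM. Bars are 95% exact Poisson intervals of the counts on the TPM scale and cover counting error only, and the dashed line marks 1 TPM. Cbfb and Pth1r stand above 60 TPM, 7 genes lie between 1 and 10 TPM, and Col10a1 lies under 1 TPM in both libraries.

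Among the Runx genes, Runx2 was the highest and Runx3 the lowest in both libraries. Runx2 (ENSMUSG00000039153.12, chromosome 17, 44495987 to 44814797, mm10, minus strand) was at 9.74 TPM in replicate 1 and 6.95 TPM in replicate 2, a mean of 8.35 ± 1.97 (SD, n = 2). Runx1 (ENSMUSG00000022952.12, chromosome 16, 92601466 to 92826149, minus strand) was at 4.42 and 3.93 TPM (4.17 ± 0.346). Runx3 (ENSMUSG00000070691.6, chromosome 4, 135120652 to 135177990, plus strand) was at 1.67 and 1.29 TPM (1.48 ± 0.269). The 3 ranges did not overlap. Runx2 held 61.5% of the summed Runx TPM in replicate 1 and 57.1% in replicate 2, Runx1 held 27.9% and 32.3%, and Runx3 10.5% and 10.6%. The Runx2 level was 1.95-fold above Runx1 (mean log2 ratio 0.96 ± 0.22, SD, n = 2) and 5.31-fold above Runx3 (2.41 ± 0.09).

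The partner gene stood well above the factors it serves. Cbfb (ENSMUSG00000031885.9, chromosome 8, 105170674 to 105217989, plus strand) was at 89.08 TPM in replicate 1 and 92.11 TPM in replicate 2 (90.6 ± 2.14), the highest of the 10 genes in each library. The summed Runx levels were 15.8 and 12.2 TPM, 6.49-fold below Cbfb (log2 ratio -2.70 ± 0.30). Against Runx2 alone Cbfb was 10.9-fold higher (log2 ratio of Runx2 over Cbfb -3.44 ± 0.37). Cbfb-202 was its leading transcript, with 56.51% and 62.8% of the gene, followed by Cbfb-203 (25.45% and 25.53%) and Cbfb-201 (12.66% and 9.62%). Cbfb-204 held 3.94% in replicate 1 and 0 in replicate 2. Starts of these 4 transcripts lie close together, and such similar transcripts are divided by the quantifier's model.

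Transcripts of the Runx genes divided differently between the distal and proximal starts. In Runx1 the proximal group held 76.0% of the gene's TPM in replicate 1 and 72.4% in replicate 2, with Runx1-202 as its leading transcript (43.48% and 49.5% of the gene). The distal Runx1 transcript Runx1-201, whose start lies 128 kb upstream of the proximal group, held 23.04% and 26.52%. In Runx2 the proximal group, 77.6 kb from the distal group, held 65.3% and 65.5%. Runx3 was the other way round. Its distal transcript Runx3-201 held 97.77% and 94.31% of the gene, and the whole proximal group had 1.23 and 2.42 expected counts, under a floor of 3 counts. By TPM the distal share was thus 25.8% ± 2.52 for Runx1, 34.6% ± 0.120 for Runx2 and 96.1% ± 2.17 for Runx3 (SD, n = 2). These 3 ranges did not overlap. By expected counts Runx1 stood above Runx2, with distal shares of 31.4% and 33.9% against 18.0% and 20.6% in replicates 1 and 2.

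**Figure D2:**
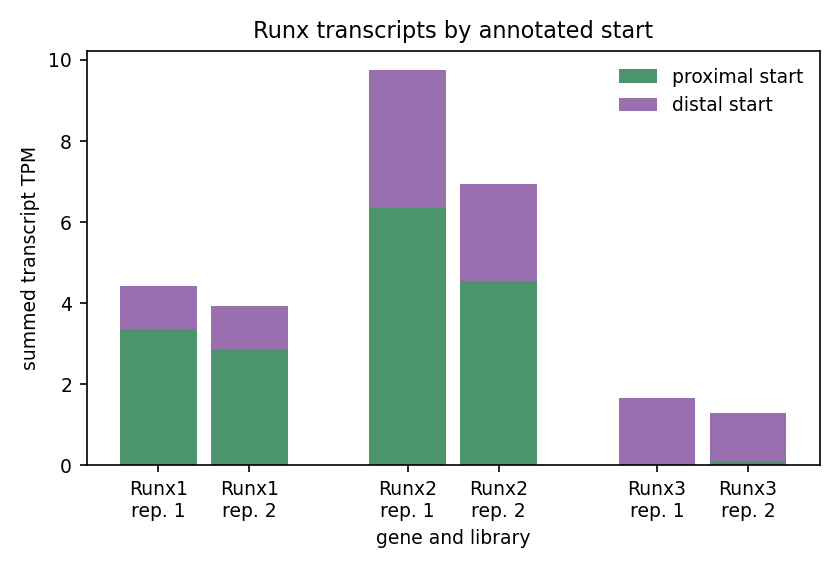
Summed transcript TPM from proximal (green) and distal (purple) annotated starts of Runx1, Runx2 and Runx3 in each library, from 0. The proximal part is the larger in Runx1 and Runx2 and nearly absent in Runx3, in both libraries.

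The scale of the Runx2 and Runx3 shares, and the order of Runx1 and Runx2, depend on the estimate used. In expected counts, which favour long transcripts, the proximal Runx2 group held 82.0% and 79.4%. The 6463 nt transcript Runx2-203 carried 438.01 and 363.24 of these counts, and 37.73% and 43.56% of the TPM. Short Runx2 models held much of the rest, and the 693 nt Runx2-209 held 19.78% and 13.45% of the TPM from 21.43 and 10.47 counts. In the authors' posterior mean estimate of TPM, the proximal Runx2 share was 59.0% and 60.6%. The posterior mean share of the distal Runx3 start was 60.7% and 53.1%, far below the 97.6% and 94.5% of the main estimate, although nearly all Runx3 counts lay on Runx3-201. An antisense gene also touches these shares: Runx2os1 (1.76 and 2.32 TPM) shares 519 of its 792 exon bases with proximal-start Runx2 exons and 0 with distal-start ones. Whether the quantification used strand is not stated by the labels or headers, so reads there cannot be assigned to a strand with certainty.

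Genes whose products bind or modify Runx proteins were present throughout. All 20 matched corepressors and modulators reached 1 TPM in both libraries, with a median level of 23.5 TPM. Ncor1, a nuclear corepressor, was at 153.67 and 162.07 TPM, and the histone deacetylase gene Hdac3 at 137.89 and 137.94. Yap1, the Hippo pathway coactivator that binds Runx proteins, was at 53.18 and 58.53 TPM. The lowest was Cbfa2t3, which encodes a corepressor of the ETO family, at 3.51 and 2.98 TPM.

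The genes listed as regulators of Runx2 and Sp7 likewise all passed 1 TPM, 23 of 23, with a median of 22.6 TPM. The list also holds the Sp7 relatives Sp8 and Sp9. The cartilage regulator Sox9 was the highest at 207.74 and 206.29 TPM. It was 24.9-fold above Runx2 (log2 ratio of Runx2 over Sox9 -4.64 ± 0.33). Twist1, whose product inhibits Runx2 function in early skeletal cells, was at 53.1 and 54.87 TPM, 6.49-fold above Runx2 (log2 ratio of Runx2 over Twist1 -2.70 ± 0.37). The stress-response factor gene Atf4, which acts in osteoblast differentiation, was at 90.83 and 93.11 TPM and Sp3 at 66.94 and 63.07 TPM.

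Sp7 was transcribed at a lower level than Runx2 in both libraries. Sp7 (ENSMUSG00000060284.6, chromosome 15, 102356606 to 102367182, minus strand) was at 3.5 TPM in replicate 1 and 2.59 TPM in replicate 2 (3.04 ± 0.643). Runx2 was 2.68-fold above it (log2 ratio 1.42 ± 0.04), and both genes were lower in replicate 2. All of its counts were on Sp7-201. Its relative Sp8, an ectodermal factor gene of the limb bud, was at 3.72 and 3.56 TPM, and their log2 ratio of -0.26 ± 0.25 was close in size to its spread.

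In the parathyroid hormone-related pathway the receptor stood far above the ligand. Pth1r (ENSMUSG00000032492.10, chromosome 9, 110722085 to 110747145, minus strand) was at 65.6 and 63.47 TPM (64.5 ± 1.51). Pthlh (ENSMUSG00000048776.6, chromosome 6, 147252101 to 147264183, minus strand) was at 6.18 and 4.55 TPM (5.37 ± 1.15). The receptor exceeded the ligand 12.0-fold (log2 ratio 3.58 ± 0.27). Pth1r-202 held 68.45% and 67.13% of the receptor gene and Pth1r-201 the remainder, with 31.55% and 32.87%. An opposite-strand gene, Myl3, shares 95 exon bases with Pth1r and had 13 and 21 counts, beside 2618 and 2551 for Pth1r.

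Other genes of this axis and of the hedgehog loop reached 1 TPM in 12 of 15 cases. Gnas, which encodes the stimulatory G protein alpha subunit used by the receptor, was at 1559.96 and 1529.94 TPM. Gna11, a G protein subunit gene of the phospholipase C branch, was at 70.82 and 69.82 TPM, and Smo, the hedgehog signal transducer gene, at 55.18 and 44.63 TPM. Pth, the gene for the hormone that shares the receptor, was listed at 0 in both libraries. Ihh, named after its values were seen, was at 5.34 and 2.82 TPM.

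The 3 genes of mineralising tissue were low, and Col10a1 was close to the limit of measurement. Col10a1 (ENSMUSG00000039462.4, chromosome 10, 34389981 to 34397085, plus strand) was at 0.35 TPM in replicate 1 (95% exact Poisson interval 0.214 to 0.541) and 0.47 TPM in replicate 2 (0.310 to 0.684), from 20 and 27 counts. Its level was 807-fold below that of the cartilage collagen gene Col2a1, at 452.67 and 368.92 TPM (log2 ratio -9.66 ± 0.45). The opposite-strand gene Nt5dc1, with 348 and 351 counts, shares 18 of the 3130 exon bases of Col10a1, and the part of its reads in the Col10a1 count was not tested.

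Spp1 (ENSMUSG00000029304.10, chromosome 5, 104435118 to 104441050, plus strand) was at 4.36 and 4.61 TPM (4.49 ± 0.177), from 107 and 114 counts. Its level differed little between the libraries. Integrin and CD44 genes that encode osteopontin receptors were measured at 1 TPM or more in 9 of 9 cases, led by Itgb1 (176.97 and 170.49 TPM), Itgb5 (73.18 and 67.62) and Itgav (60.74 and 66.11). Cd44 was the lowest at 2.37 and 2.78 TPM. Osteopontin is also made by macrophages and osteoclasts, whose summed markers are given above, and their part in the Spp1 level was not tested.

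Alpl (ENSMUSG00000028766.6, chromosome 4, 137741733 to 137796384, minus strand) was at 3.55 TPM in replicate 1 and 1.92 TPM in replicate 2 (2.73 ± 1.15). The higher library was replicate 1. Alpl-201 held 100% and 94.56% of the gene. In the posterior mean estimate Alpl was at 5.38 and 3.93 TPM, and Alpl-201 held 63.08% and 42.89% of that, while Alpl-203, a model with 0 counts in both libraries, held 18.5% and 25.15%. The posterior mean for Alpl therefore includes weight on transcripts with no assigned reads.

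In order of mean TPM the genes ran Cbfb, Pth1r, Runx2, Pthlh, Spp1, Runx1, Sp7, Alpl, Runx3 and Col10a1. Neighbours were called separated where their ranges over the libraries did not overlap and the mean log2 ratio exceeded its SD, since 2 libraries cannot give an exact sign-flip p below 0.5. Cbfb and Pth1r (log2 ratio 0.49 ± 0.07), Pth1r and Runx2 (2.96 ± 0.31), Runx2 and Pthlh (0.62 ± 0.03), Runx1 and Sp7 (0.46 ± 0.18), Alpl and Runx3 (0.79 ± 0.36) and Runx3 and Col10a1 (1.63 ± 0.49) were separated. Pthlh and Spp1 (0.24 ± 0.36), Spp1 and Runx1 (0.10 ± 0.17) and Sp7 and Alpl (0.20 ± 0.31) were not. By posterior means the order of Sp7 and Alpl turned (log2 ratio -0.63). Spp1 exceeded Alpl by a log2 ratio of 0.76 ± 0.66, which became -0.07 when counts were not scaled by length. Under the same change Spp1 over Runx1 went from 0.10 to -1.66 and Runx2 over Pthlh from 0.62 to 1.88, so the order given holds per length only.

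The 2 pools were then compared gene by gene with an exact binomial test on the counts, two-sided, adjusted by the Benjamini-Hochberg method over the 18580 genes tested. This test covers counting error only and compares these 2 libraries. None of the 10 genes was called at a fold of 2 or more (0 of 10, also before adjustment, beside 1.67% of all genes tested). With no fold limit 4 of 10 were called, beside 16.0% of all genes. All 4 were called lower in replicate 2, beside 9.05% of all genes called lower. At an unadjusted p under 0.05 the number called was 5, with Runx3 added. The 4 were Alpl, Pthlh, Sp7 and Runx2. Called or not, 7 of the 10 genes were lower in replicate 2 by count, beside 52.4% of all genes tested. The median log2 ratio of replicate 2 over replicate 1 was -0.17 over the 10 genes and -0.010 over all genes tested.

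**Figure D3:**
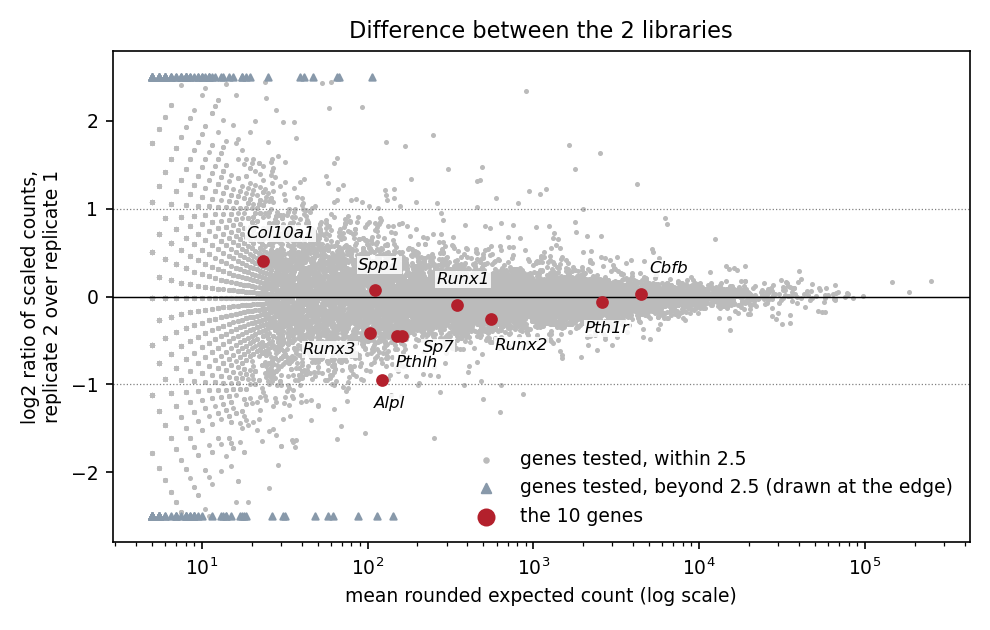
Log2 ratio of scaled counts, replicate 2 over replicate 1, against the mean rounded expected count (log axis) for all genes tested (grey) and the 10 genes (red). Dotted lines mark a fold of 2, and the 121 genes beyond a log2 ratio of 2.5 in size are drawn at the edge. All 10 genes lie inside the dotted lines, with Alpl the nearest to one.

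The largest of these differences was that of Alpl, with 161 counts in replicate 1 and 84 in replicate 2 (log2 ratio -0.96, 1.94-fold lower, adjusted p = 1.54e-05 by the exact binomial test). Pthlh had 174 and 129 counts (log2 ratio -0.45, adjusted p = 0.0495, exact binomial) and Sp7 had 184 and 137 (-0.44, adjusted p = 0.0452, exact binomial). Runx2 had 599.14 and 508.7 counts (-0.26, adjusted p = 0.0267, exact binomial). On the TPM scale the Runx2 difference was larger, with a log2 ratio of -0.49, and the deposited mean length of the gene, which weights its transcripts by their share, was 3383.83 nt in replicate 1 and 3981.61 nt in replicate 2. Runx2-207, a distal-start transcript, went from 15.5% to 6.11% of the gene and the longer distal-start Runx2-202 from 2.11% to 7.15%.

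The other 6 genes were not called. Runx3 had 117 and 89 counts (log2 ratio -0.41, adjusted p = 0.180, exact binomial), Runx1 had 357 and 340 (-0.09, adjusted p = 0.698, exact binomial) and Col10a1 the 20 and 27 given above (0.40, adjusted p = 0.684, exact binomial). Cbfb, Pth1r and Spp1 differed by log2 ratios of 0.03, -0.06 and 0.07. edgeR's exact test was run as an alternative that allows for spread beyond counting error. It sets 1 library against 1 library, and its dispersion was estimated from the same 2 libraries, so it is no independent measure of replicate spread. By this test 0 of the 10 genes were called (1 at an unadjusted p under 0.05, Alpl, adjusted p = 0.313), beside 0.888% of all genes. The calls of Alpl, Pthlh, Sp7 and Runx2 thus cover counting error only. Those of Pthlh (adjusted p = 0.0546 by TMM scaling and 0.0618 by DESeq2 size factors, exact binomial test) and Sp7 (0.0566 by DESeq2 size factors) were lost under other scalings.

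Some genes of late cartilage and early bone differed by more than any of the 10. Of the 10 hypertrophic cartilage genes tested, a list that includes Alpl, Spp1 and Col10a1, 7 were called lower in replicate 2 and 0 higher. The share of all genes called lower was 9.05%. The list had a median log2 ratio of -0.50, and edgeR's exact test called 1 of 10, beside 0.888% of all genes. Panx3, a channel gene of hypertrophic chondrocytes and osteoblasts, was at 3.51 TPM in replicate 1 and 0.35 TPM in replicate 2, 9.81-fold lower by counts (159 and 16, adjusted p = 5.83e-29 by the exact binomial test and 2.97e-10 by edgeR's exact test). Foxa3, a factor gene of hypertrophic chondrocytes, was at 1.49 and 0.69 TPM, 2.17-fold lower (adjusted p = 0.0112, exact binomial, and 0.807 by edgeR's exact test). The list was led in level by Mef2c (24.38 and 20.91 TPM), Fgfr3 (23.04 and 20.23 TPM) and Vegfa (4.44 and 4.67 TPM). The called differences of Mef2c and Fgfr3 were small, with log2 ratios of -0.16 and -0.24. Foxa2 was listed at 0 in both libraries, as was Mmp13, named after its values were seen. Vegfa, Spp1 and Col10a1 were the 3 tested genes of the list that were not called. Of the 7 called, Panx3 is also on the osteoblast list and Ihh on the hedgehog list. Mef2c is also among the regulators of Runx2 and Sp7, and Mmp9 among the osteoclast markers. Calls of these genes are counted in each list.

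Osteoblast matrix and osteocyte genes gave 9 of 14 called lower in replicate 2, beside 9.05% of all genes, and 0 higher. Their median log2 ratio was -0.10, and edgeR's exact test called 2 of 14, beside 0.888% of all genes. Ibsp, which encodes bone sialoprotein, had 26 counts in replicate 1 and 0 in replicate 2, at least 8.79-fold lower against a floor of 3 counts per library (adjusted p = 8.78e-07 by the exact binomial test and 0.000215 by edgeR's exact test). The 3 most abundant genes of the list were among those called, with small differences. Serpinh1, a collagen chaperone gene, was at 971.49 and 932.94 TPM, Sparc at 410.8 and 383.31 and Col1a2 at 392.13 and 383.64. Col1a1, the next in level and named after its values were seen, was at 288.81 and 244.29 TPM (log2 ratio -0.25, adjusted p = 1.25e-96 by the exact binomial test and 0.494 by edgeR's exact test). Mepe was listed at 0 in both libraries. The tested genes of the list that were not called are named after their values were seen. They were Ifitm5 (56 and 55 counts), Sost (36 and 35), Phex (96 and 73), Omd (17 and 24) and Dmp1 (12 and 15).

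Mineralisation genes gave 4 of 11 called lower in replicate 2, beside 9.05% of all genes, and 0 higher. Their median log2 ratio was -0.18, and edgeR's exact test called 1 of 11, beside 0.888% of all genes. Smpd3, a sphingomyelinase gene needed for skeletal mineralisation, was at 2.6 and 0.39 TPM, 6.67-fold lower by counts (adjusted p = 3.08e-37 by the exact binomial test and 2.35e-11 by edgeR's exact test). The annexin genes Anxa2 (248.11 and 220.3 TPM), Anxa6 (146.44 and 141.75) and Anxa5 (128.36 and 114.3) were the highest, and the alkaline phosphatase paralog Alppl2 was listed at 0 in both libraries.

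**Figure D4:**
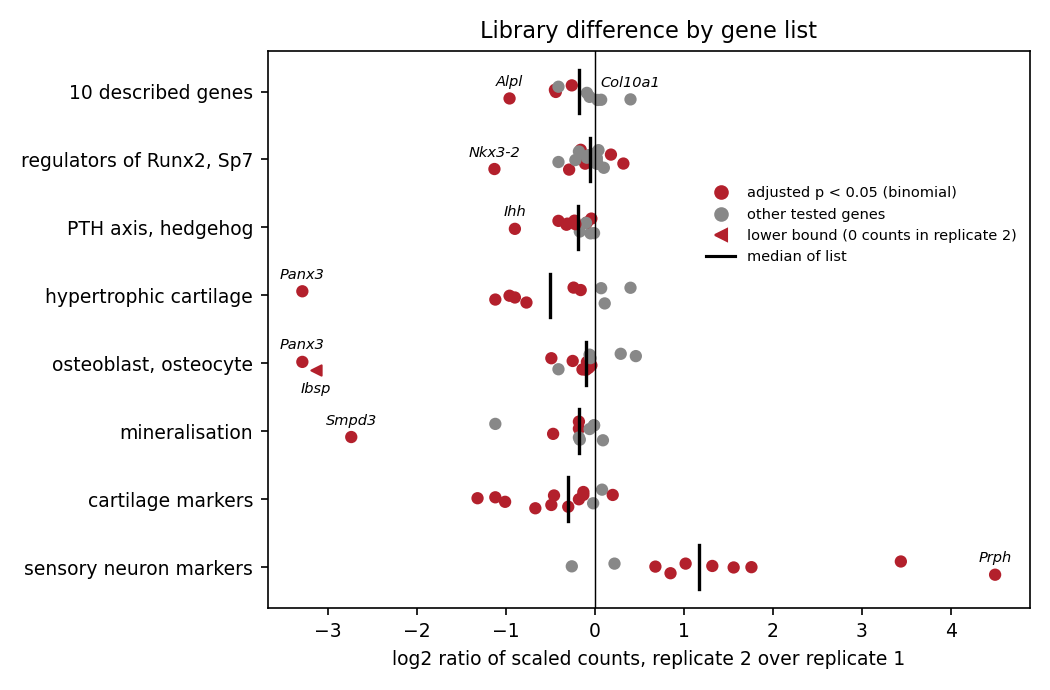
Log2 ratio of scaled counts, replicate 2 over replicate 1, for each tested gene of 8 lists, which overlap in part. Red points passed the exact binomial test at an adjusted p under 0.05, black bars are list medians and the triangle is a lower bound. Panx3, Ibsp and Smpd3 lie far to the left, the 10 described genes within a fold of 2, and most sensory neuron markers to the right.

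Signalling genes around Pthlh were called in 1 direction by the exact binomial test. Of 12 tested genes of the parathyroid hormone axis and hedgehog loop, 8 were called lower in replicate 2 and 0 higher (median log2 ratio -0.19). The called differences ran from that of Gnas (log2 ratio -0.04, from 47330.62 and 46675.67 counts) to that of Ihh. The shares of all genes called were 9.05% lower and 6.94% higher. These shares were not matched to any list by count, and the binomial test calls smaller differences at higher counts. In that list edgeR's exact test called 0 of 12 (2 at an unadjusted p under 0.05), beside 0.888% of all genes. At an unadjusted binomial p under 0.05, 0 genes of this list, of the hypertrophic list and of the osteoblast list were higher in replicate 2, and 1 of the mineralisation list was. Ihh had 220 and 119 counts (log2 ratio -0.90, adjusted p = 7.60e-07 by the exact binomial test and 0.173 by edgeR's exact test). Osteopontin receptor genes gave 4 called lower and 1 higher of 9, with a median of -0.13 (0 of 9 called by edgeR's exact test, adjusted or unadjusted).

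Of all genes tested, 6.94% were called higher in replicate 2 and 9.05% lower. The list of regulators of Runx2 and Sp7, which holds Sp8 and Sp9 too, gave 2 higher and 4 lower of 23 (median log2 ratio -0.06). Nkx3-2, whose product represses Runx2 in immature cartilage, was the only one past a fold of 2, at 7.19 and 3.31 TPM (2.18-fold lower by counts, adjusted p = 1.21e-09 by the exact binomial test and 0.0346 by edgeR's exact test). Corepressors and modulators gave 5 called higher and 3 lower of 20, with a median of -0.01, near that of all genes (0 of 20 called by edgeR's exact test, 1 at an unadjusted p under 0.05).

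Markers of other cells differed between the pools as well, and their part in the differences above was not tested. By the exact binomial test 10 of 13 cartilage markers were called lower in replicate 2 and 1 higher, with a median log2 ratio of -0.30, beside 9.05% of all genes called lower. Matn1 (2.49-fold), Comp (2.17-fold) and Acan (2.02-fold) were past a fold of 2, and edgeR's exact test called 4 of 13 cartilage markers, all lower. Sox9 and Sox5, regulators of the same tissue, were not called (log2 ratios -0.02 and 0.08). The marker called higher was a further regulator, Sox6 (log2 ratio 0.20). Of the sensory neuron markers 8 of 10 were called higher by the binomial test, with a median of 1.17, beside 6.94% of all genes, and edgeR's exact test called 4 of 10. Prph, a peripheral neuron filament gene, had 5 and 126 counts (22.7-fold, adjusted p = 1.03e-28, exact binomial). The sensory neuron markers not called were Nefm (566.73 and 669.33 counts) and Ntrk3 (6 and 5 counts). Runx1 and Runx3, which act in sensory neurons, were not among the genes called higher.

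Of 12 blood progenitor and megakaryocyte markers 0 were called in either direction by the exact binomial test (4 at an unadjusted p under 0.05), with a median of -0.10, beside a Runx1 log2 ratio of -0.09. Macrophage markers gave 2 called lower of 11 (median -0.21) and osteoclast markers 2 of 6 tested (median -0.24), beside a Spp1 log2 ratio of 0.07. Surface ectoderm markers gave 3 called lower of 9 (median -0.15), muscle markers 3 of 9 (-0.07) and endothelial markers 2 of 8 (-0.13), with 0 called higher in each of these lists. Over all genes tested, 9.05% were called lower and 6.94% higher. By edgeR's exact test 0 markers of these 6 lists were called (at an unadjusted p under 0.05, 1 of the osteoclast and 2 of the ectoderm markers, and 0 of the other lists). The limb identity genes summed to 1132 and 1216 TPM, and 6 of 10 were called higher in replicate 2 and 1 lower (median 0.12). The genes called include the hindlimb genes Pitx1, at 142.42 and 172.9 TPM (adjusted p = 1.72e-26, exact binomial, and 0.254 by edgeR's exact test), and Tbx4, at 32.27 and 37.14 TPM (0.000182, exact binomial, and 1.00 by edgeR's exact test). The gene called lower was the forelimb gene Tbx5, at 35.17 and 24.11 TPM (2.62e-33, exact binomial, and 0.00290 by edgeR's exact test). These 3 were named after their values were seen, and the share of forelimb and hindlimb in each pool is not given in the labels.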

How the data were processed

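Limb total RNA was measured in 2 libraries of 1 group, with mirVana named as the extraction method per the labels' protocols. Per the file headers, the authors deposited expected counts for genes and transcripts, with shared reads split between them, and these were rounded here before count tests. They also deposited TPM and FPKM, both length-scaled, with TPM summed over all rows including spike-ins. Per the file headers, FPKM and TPM are the authors' own values. Transcript shares are the percent values in the deposited tables. The build was mm10 with GENCODE M4, per the text deposited with each sample. No label or header used here names the aligner, the quantifier or the strand setting.

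Symbols and coordinates came from GENCODE M21 (same assembly), which matched 42462 of 43346 Ensembl genes. The 26345 other rows (spike-ins and numeric identifiers) held 3.28% and 2.30% of the counts and were left out of tests. The libraries differed by a chi-square of 6.61 per degree of freedom, so neither is a copy of the other. The quasi-likelihood test of edgeR needs groups and was not run. The exact conditional binomial test took genes whose counts in both libraries together were 10 or more, scaled by Ensembl totals of 28832310 and 29249374. It was tried on simulated counts with counting error only, so that trial says nothing of spread between libraries. The binomial test covers counting error only, as do the intervals and the floor of 3 counts, since no molecular identifiers are recorded. Replicate spread was estimated in edgeR (estimateDisp, no covariates) (common coefficient of variation 0.0698 over 16488 genes). Ratios used log2(TPM + 0.1). Transcripts were divided at the largest gap between annotated starts. Promoter windows came from RefSeq.

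The text names all 10 genes, the 3 highest and the lowest of each pathway list, up to 5 list genes called at least 2-fold, and the genes of set pairs. Tle5 was not matched, and 1 gene that this rule takes is not reported here. Likeness to other genes was not measured, since 2 libraries give no pattern. The genes, lists and pairs were chosen with earlier results of these data known. Alternatives changed scaling, count minimum, test, pseudocount, level estimate, TPM threshold and the libraries used. Tools were R 4.3.3, edgeR 4.0.16, DESeq2 1.42.0 and Python 3.11.15 with matplotlib 3.10.9, pandas 2.3.3, scipy 1.17.1 and numpy 2.4.6.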

Additional observations from a re-analysis of the deposited data

How the results depend on the processing

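Of the genes tested, 311 differed at least 2-fold between the libraries, and this count was 74 with a minimum of 100 counts and 102 by edgeR's exact test. With no fold limit the count was 2972, and 165 by edgeR's exact test. The number of the 10 genes at 1 TPM or more in both libraries was 9, 8 by FPKM and 7 at a threshold of 2 TPM, and 9 without either replicate. The log2 ratio of Spp1 over Alpl turned from 0.76 to -0.07 with expected counts that were not scaled by length, Spp1 over Runx1 went from 0.10 to -1.66 and Runx2 over Pthlh from 0.62 to 1.88. Posterior means put Alpl at 4.66 TPM against 2.73 and Runx3 at 2.42 against 1.48. No paired analysis was possible because there is 1 group. Depth limits Col10a1 most, with 20 and 27 counts, and the proximal Runx3 start, with 1.23 and 2.42. No level, ratio or share was tested, since an exact test over 2 libraries cannot go below p = 0.5, and the binomial calls do not include the spread between pools.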
